A study of Mus musculus with 9 samples.

Results

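The alpha-arrestins are arrestin-fold proteins related to the beta-arrestins, and the account below covers the 5 of them with a row in the count table: Arrdc1 (ENSMUSG00000026972), Arrdc2 (ENSMUSG00000002910), Arrdc3 (ENSMUSG00000074794), Arrdc4 (ENSMUSG00000042659) and Txnip (ENSMUSG00000038393). They are 5 of the 20591 genes in the table, taken by their symbols, and all 5 passed the filter on low counts. RNA was measured by sequencing in lysate of the substantia nigra, the midbrain region that holds dopaminergic neurons, from sham-operated wild type C57BL/6 mice that entered the study at 12 weeks of age. The 9 libraries form 3 groups of 3: 1 week of intermittent fasting with 3 fasts of 24 hours, 1 day of fasting, and 1 week of ad libitum feeding. Every fast began 2 hours before lights off, all mice had water, and ad libitum mice were moved between cages at the same times as the others, so that handling was shared. All 3 groups carry the sham operation, and libraries from unoperated mice were not analysed here. No label ties a library to an animal, so the p-values below measure the spread between these libraries, which may be technical. When tissue was taken after the final fast is not stated in the sources used. The family was chosen by the measured RNA levels of Arrdc2, which was among the genes called in both comparisons with ad libitum feeding, and the other 4 genes joined it by kinship.

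Most alpha-arrestins carry proline-rich motifs in their tails that bind NEDD4-type ubiquitin ligases, and through them they direct receptors and transporters from the cell surface into endosomes. Txnip differs from the others in also binding thioredoxin, and its transcript is known in many cell types to follow glucose supply through the transcription factors MondoA and ChREBP with their partner Mlx. Txnip and Arrdc4 are both known as brakes on glucose uptake, Arrdc3 as a regulator of beta-adrenergic receptors, and Arrdc1 as a driver of vesicle budding at the plasma membrane, while Arrdc2 is less studied and is known to rise in muscle under glucocorticoids.

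Promoters are printed for 3 members whose RNA levels, described below, differed in their contrast with ad libitum feeding. Arrdc2 and Txnip had higher RNA in fasted libraries, and Arrdc4, which shares the glucose control of Txnip, did not. Each window holds 250 bases before and 50 bases after the annotated start, from RefSeq on build GRCm38.p6, and is read 5′ to 3′ on the strand of the gene. The windows are chr8:70839671-70839970 on the minus strand for Arrdc2, chr3:96557707-96558006 on the plus strand for Txnip and chr7:68749189-68749488 on the minus strand for Arrdc4. Capitals mark matches, on either strand, to 5 motifs: the CCAAT box (CCAAT), the E-box (CACGTG), a pair of looser E-boxes 5 bases apart (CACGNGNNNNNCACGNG, which can contain CACGTG), the forkhead core (GTAAACA) and the glucocorticoid response element (GNACANNNTGTNC). The glucocorticoid half-site (AGAACA), found in 19% of 32851 RefSeq windows, was searched too and had no match in any window of the 5 members. All motifs were chosen after the sequences and the results had been seen.
Arrdc2: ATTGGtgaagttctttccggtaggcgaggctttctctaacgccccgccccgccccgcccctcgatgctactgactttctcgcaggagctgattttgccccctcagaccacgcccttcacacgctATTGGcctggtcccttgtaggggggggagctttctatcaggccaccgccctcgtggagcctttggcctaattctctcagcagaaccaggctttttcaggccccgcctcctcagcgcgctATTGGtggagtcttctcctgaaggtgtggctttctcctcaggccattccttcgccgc
Txnip: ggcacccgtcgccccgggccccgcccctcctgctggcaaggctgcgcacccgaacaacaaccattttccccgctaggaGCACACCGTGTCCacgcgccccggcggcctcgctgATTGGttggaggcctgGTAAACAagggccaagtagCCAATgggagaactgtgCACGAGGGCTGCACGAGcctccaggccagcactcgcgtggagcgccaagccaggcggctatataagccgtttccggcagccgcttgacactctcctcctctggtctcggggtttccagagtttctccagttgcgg
Arrdc4: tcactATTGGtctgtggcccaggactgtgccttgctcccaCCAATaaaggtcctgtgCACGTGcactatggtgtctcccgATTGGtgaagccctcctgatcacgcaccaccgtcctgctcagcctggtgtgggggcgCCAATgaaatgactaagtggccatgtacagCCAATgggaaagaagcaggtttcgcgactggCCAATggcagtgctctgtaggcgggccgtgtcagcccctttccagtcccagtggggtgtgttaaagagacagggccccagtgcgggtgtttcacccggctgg

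The Arrdc2 window held 3 CCAAT boxes, all on the opposite strand and so read as ATTGG, at positions -250, -126 and -7 from the start, and no match to the other motifs. At least 3 CCAAT boxes were found in 3.37% of the 32851 RefSeq windows of this length. The Txnip window held the pair of E-box-like letters at -85, as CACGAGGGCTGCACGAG, and 16 windows of all (0.0487%) held such a pair. It also held a forkhead core at -121 (in 3.65% of windows), a match to the glucocorticoid element at -172 (0.475%) and 2 CCAAT boxes. The Arrdc4 window held 1 CACGTG at -193 (7.15% of windows) and 6 CCAAT boxes, a number reached in 26 windows (0.0791%). The Arrdc1 window held none of these motifs. Of the 3 Arrdc3 windows, 2 overlap and held the same CCAAT box, which lies at -173 or -211 depending on the start used. Within a window no match shared a base with another, and a match of letters is a description that says nothing about whether a factor binds.

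Library totals ran from 36109995 to 54248856 estimated counts in the 1 week libraries, from 37732284 to 46522059 in the 1 day libraries and from 38516394 to 45693865 in the ad libitum libraries. A fit that weights libraries by quality gave 0.507 to 1 week replicate 2 and 0.213 to 1 day replicate 2, against 0.972 to 1.93 in the other 7. The members' differences from ad libitum are given below with and without this pair. All 11 markers fixed for dopaminergic neurons were measured, which alone does not show that the dissections were alike. Their sums were uneven, from 1139 to 1787 CPM in the 1 week libraries and from 735 to 1498 CPM in the 1 day libraries. The ad libitum sums ran from 1099 to 1447 CPM, and all groups overlapped. Cortical markers were uneven too, with sums of 15.3, 45.1 and 524 CPM in replicates 1, 2 and 3 of the 1 week group. They summed to 8.09 to 12.7 CPM in the 1 day libraries and to 37.4 to 59.3 CPM in the ad libitum libraries, without overlap. The part of these tissue differences in the members' differences was not tested. The summed choroid plexus markers reached 373 CPM in 1 ad libitum library.

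Arrdc2 had the largest response of the family and stood several-fold higher after fasting. Its level was 52.7, 68.6 and 73.9 CPM in the 1 week libraries, 56.7, 34.0 and 49.7 CPM in the 1 day libraries, and 15.4, 15.7 and 16.7 CPM in the ad libitum libraries. All 6 fasted libraries were above all 3 ad libitum libraries, and the lowest fasted library, replicate 2 of the 1 day group, is one of the pair that stood apart. The group means were 65.0 ± 11.0 CPM after 1 week, 46.8 ± 11.6 CPM after 1 day and 15.9 ± 0.730 CPM under ad libitum feeding (SD, n = 3 each). These levels rest on 2516 to 3197 counts in the 1 week libraries, 1318 to 2730 counts in the 1 day libraries and 542 to 773 counts in the ad libitum libraries, so counting error was small beside the spread between fasted libraries, and close to the spread between ad libitum libraries. In bulk tissue, more cells of a type and more RNA per cell cannot be told apart.

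On the log2 scale, Arrdc2 was 2.03 above ad libitum after 1 week (SE 0.19, 95% interval 1.60 to 2.46), which is 4.08-fold. After 1 day it was 1.56 above ad libitum (SE 0.19, 95% interval 1.13 to 1.98), which is 2.94-fold. The family was proposed with Arrdc2 already known to be called in both comparisons, so these values are a description and carry no p-value. In each comparison 1 of the 5 members passed edgeR's threshold, Arrdc2 itself, where 0.307% of all tested genes passed at 1 week (63 of 20535, 0.253% higher and 0.0536% lower) and 0.0584% at 1 day (12 of 20535, 0.0536% higher and 0.00487% lower). Without the pair of libraries that stood apart, the differences were 2.00 after 1 week and 1.74 after 1 day. The call at 1 week was kept in 9 of 9 fits that each left out 1 library, and that at 1 day in 4 of 9, being lost without 1 day replicate 1, 1 day replicate 3 or any ad libitum library.

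By size of change alone, some other genes exceeded Arrdc2. At 1 week 0.433% of tested genes had a larger absolute log2 difference than Arrdc2, and at 1 day 0.916% did. The median absolute difference over all tested genes was 0.173 at 1 week and 0.187 at 1 day.

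**Figure D1:**
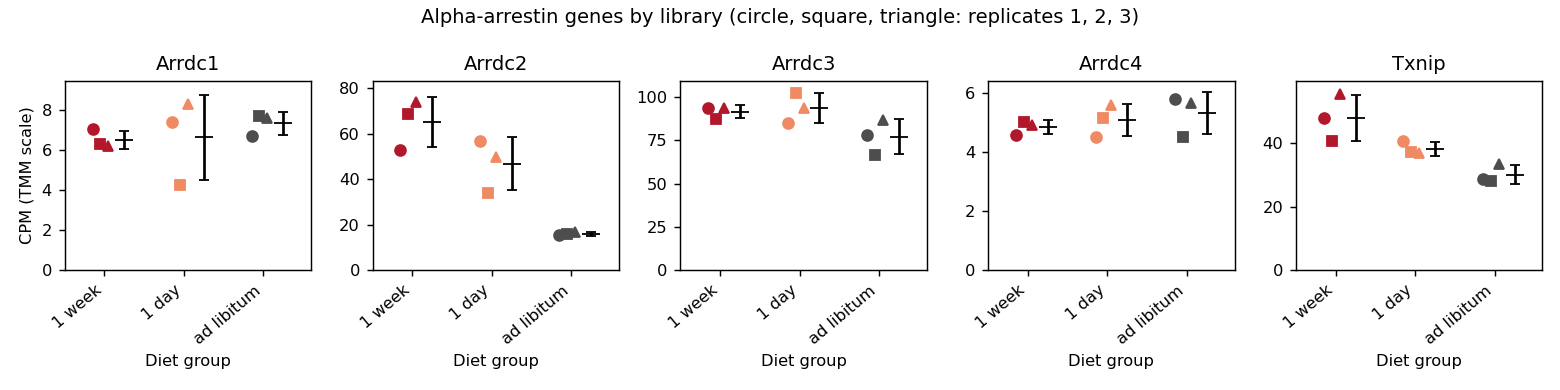
Level of each alpha-arrestin in CPM (vertical axes, linear, starting at 0) in every library of the 1 week, 1 day and ad libitum groups, with the group mean and SD (n = 3). The 6 fasted libraries of Arrdc2 lie between 34.0 and 73.9 CPM, above the ad libitum libraries at 15.4 to 16.7 CPM, and those of Txnip lie above its ad libitum libraries too, while Arrdc1 and Arrdc4 overlap between groups.

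Txnip, the thioredoxin-binding member that restrains glucose uptake, had a smaller difference of the same sign. Its level was 48.0, 40.7 and 55.5 CPM in the 1 week libraries, 40.9, 37.2 and 37.0 CPM in the 1 day libraries, and 28.8, 28.2 and 33.5 CPM in the ad libitum libraries. Every fasted library was above every ad libitum library, and the narrowest gap lay between 1 day replicate 3 and ad libitum replicate 3. The means were 48.0 ± 7.39 CPM after 1 week, 38.4 ± 2.17 CPM after 1 day and 30.2 ± 2.92 CPM under ad libitum feeding (SD, n = 3 each).

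The fitted difference of Txnip from ad libitum was 0.67 on the log2 scale after 1 week (SE 0.13, 95% interval 0.38 to 0.96), or 1.59-fold, and 0.35 after 1 day (SE 0.13, 95% interval 0.06 to 0.63), or 1.27-fold. Larger absolute differences were seen in 9.15% of all tested genes at 1 week and in 25.6% at 1 day, so the size of the Txnip difference at 1 day was ordinary for this table. Txnip did not pass edgeR's threshold in either comparison, and at 1 week it did pass with DESeq2, with weighted limma-voom and without both libraries that stood apart (0.79). Without that pair its difference at 1 day was 0.37.

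Arrdc3, the member linked to beta-adrenergic receptors, differed little between the groups. It had 93.7, 87.1 and 93.7 CPM in the 1 week libraries, 84.9, 102 and 93.6 CPM in the 1 day libraries and 78.1, 66.4 and 86.7 CPM in the ad libitum libraries. The 1 week libraries all lay above the ad libitum ones, by as little as 87.1 against 86.7 CPM, and the 1 day libraries overlapped them. The log2 difference from ad libitum was 0.25 after 1 week (SE 0.12, 95% interval -0.01 to 0.51) and 0.28 after 1 day (SE 0.12, 95% interval 0.02 to 0.54). Without both libraries that stood apart, these differences were 0.29 and 0.21.

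Arrdc4, which shares the glucose-regulated control of Txnip, did not pass the threshold and overlapped between all 3 groups. Its level was 4.58, 5.02 and 4.92 CPM in the 1 week libraries, 4.51, 5.14 and 5.58 CPM in the 1 day libraries and 5.79, 4.51 and 5.65 CPM in the ad libitum libraries. The log2 difference from ad libitum was -0.14 after 1 week (SE 0.16, 95% interval -0.49 to 0.22) and -0.07 after 1 day (SE 0.16, 95% interval -0.42 to 0.29), and the 1 day value was 0.01 when libraries were scaled by their totals alone. Without both libraries that stood apart, Arrdc4 was -0.15 from ad libitum after 1 week and -0.08 after 1 day.

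Arrdc1, which recruits the budding machinery to the plasma membrane, also overlapped between all groups. It had 7.05, 6.30 and 6.22 CPM in the 1 week libraries, 7.40, 4.23 and 8.30 CPM in the 1 day libraries and 6.68, 7.70 and 7.63 CPM in the ad libitum libraries. The low value belongs to replicate 2 of the 1 day group, which stood apart. The log2 difference from ad libitum was -0.17 after 1 week (SE 0.22, 95% interval -0.66 to 0.33) and -0.14 after 1 day (SE 0.22, 95% interval -0.64 to 0.35), and without both libraries that stood apart these values were -0.13 and 0.10.

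Read over the family, 3 of 5 members had all 1 week libraries above all ad libitum libraries (Arrdc2, Arrdc3 and Txnip), where 10.9% of tested genes did, and 2 of 5 had all 1 day libraries above them (Arrdc2 and Txnip), where 8.17% did. Arrdc2 was what chose the family, so its place in these counts was fixed, and of the other 4 members 2 did so at 1 week and 1 at 1 day. No member had all fasted libraries below the ad libitum ones, as 11.5% of tested genes had at 1 week and 10.3% at 1 day. In either direction the groups did not overlap in 22.4% of tested genes at 1 week and in 18.5% at 1 day. The 1 week and 1 day comparisons share the ad libitum libraries, so a like sign in both is no independent evidence.

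**Figure D2:**
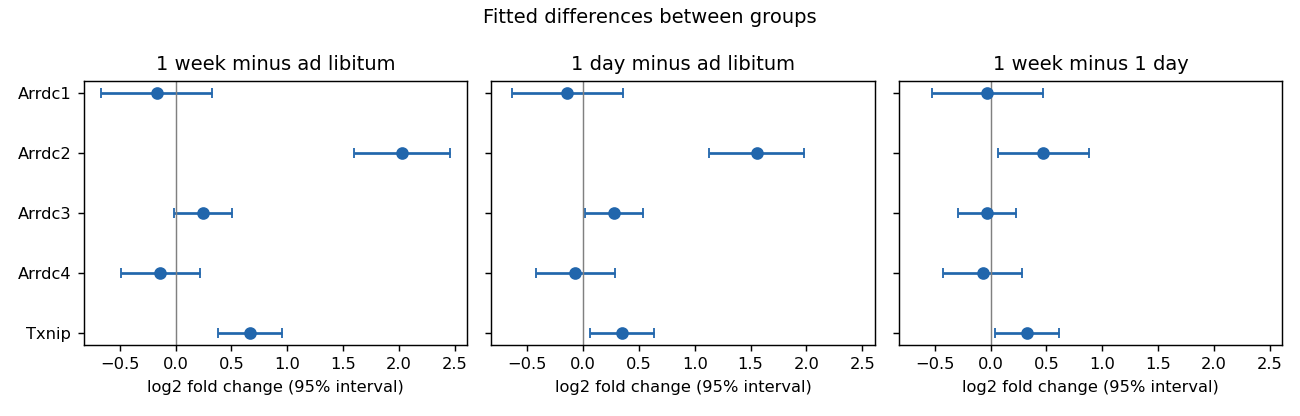
Log2 difference of each alpha-arrestin (horizontal axis) with its 95% interval from the fit, for 1 week minus ad libitum, 1 day minus ad libitum and 1 week minus 1 day. The Arrdc2 values of 2.03 and 1.56 and the Txnip values of 0.67 and 0.35 against ad libitum lie above 0 with their intervals. The Arrdc3 interval against ad libitum also lies above 0 at 1 day (0.02 to 0.54) and spans 0 at 1 week (-0.01 to 0.51). The intervals of Arrdc1 and Arrdc4 span 0 in all comparisons.

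The comparison of 1 week with 1 day was not used to choose the family, though it shares libraries with those that were, and it asks whether repeated fasts left levels other than a single fast did. None of the 5 members passed edgeR's threshold here, and none had groups that did not overlap, where 7.79% of tested genes had such groups (4.5% higher and 3.28% lower after 1 week). Over all 20535 genes edgeR called 0 (0%), with 1071 genes at an unadjusted p under 0.05, while DESeq2 called 3 genes and weighted limma-voom 0. Neither of those tools called a member, and Arrdc2 and Txnip were the 2 members with an unadjusted p under 0.05.

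Arrdc2 averaged 65.0 CPM after 1 week and 46.8 CPM after 1 day, a log2 difference of 0.47 (SE 0.18, 95% interval 0.06 to 0.88, edgeR adjusted p = 0.853). Replicate 1 of the 1 week group, at 52.7 CPM, lay below replicate 1 of the 1 day group, at 56.7 CPM. Txnip averaged 48.0 CPM after 1 week and 38.4 CPM after 1 day, a log2 difference of 0.33 (SE 0.13, 95% interval 0.04 to 0.61, edgeR adjusted p = 0.853). Its 1 week replicate 2, at 40.7 CPM, lay just under 1 day replicate 1, at 40.9 CPM, so both genes overlapped by 1 library of each group. The differences of Arrdc1, Arrdc3 and Arrdc4 were -0.03, -0.03 and -0.07 (edgeR adjusted p = 0.983, 0.961 and 0.933), and their signs turn under other settings. The intervals of Arrdc2 and Txnip leave room for a difference of up to 0.88 and 0.61, so a missed threshold does not show equal levels.

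Ratios of members within a library do not depend on how libraries are scaled, and they separated Arrdc2 from Arrdc3. Arrdc2 had 0.562, 0.787 and 0.789 counts per Arrdc3 count in the 1 week libraries, 0.668, 0.333 and 0.531 in the 1 day libraries and 0.196, 0.236 and 0.193 in the ad libitum libraries. All fasted libraries were above all ad libitum libraries in this ratio. Arrdc2 was what chose the family and Arrdc3 differed little, so this separation was largely given beforehand and is no added evidence. Txnip had 10.5, 8.11 and 11.3 counts per Arrdc4 count after 1 week and 9.06, 7.24 and 6.64 after 1 day. Under ad libitum feeding it had 4.98, 6.25 and 5.93, and fasted and ad libitum libraries again did not overlap. The narrowest gap lay between 1 day replicate 3 and ad libitum replicate 2, where Arrdc4 had only 242 and 156 counts. Txnip alone already separated these libraries and Arrdc4 differed little, so this separation too was largely given beforehand and is no added evidence. Txnip and Arrdc4 are the pair described elsewhere as sharing glucose control, and here their ratio averaged 9.95 ± 1.64 after 1 week, 7.64 ± 1.26 after 1 day and 5.72 ± 0.661 under ad libitum feeding (SD, n = 3 each).

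The ratio of Txnip to Arrdc3 overlapped more. It was 0.512, 0.467 and 0.592 after 1 week, 0.481, 0.364 and 0.396 after 1 day and 0.369, 0.425 and 0.387 under ad libitum feeding, and the 1 day and ad libitum values were mixed. Arrdc1 per Arrdc4 ran from 1.26 to 1.54 after 1 week, from 0.824 to 1.64 after 1 day and from 1.15 to 1.71 under ad libitum feeding, with overlap between all groups.

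**Figure D3:**
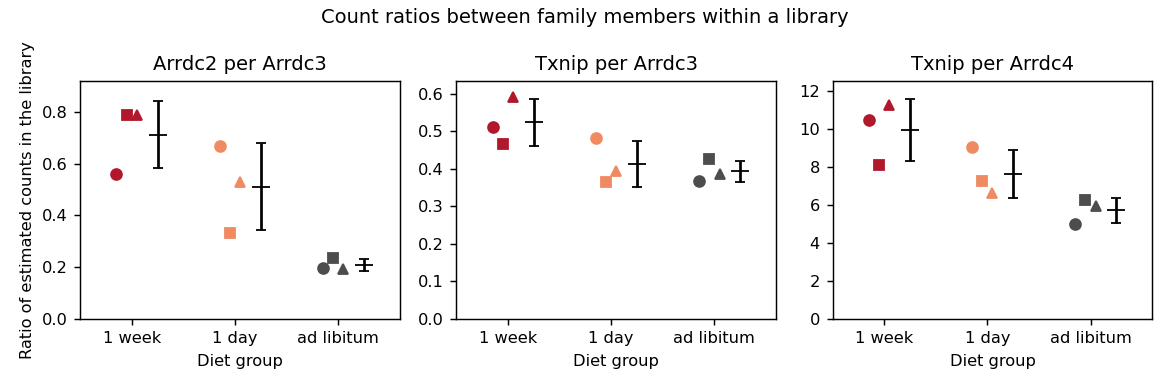
Ratio of the counts of one alpha-arrestin to another within each library (vertical axes, linear, starting at 0), for the 1 week, 1 day and ad libitum groups with the mean and SD (n = 3). Arrdc2 per Arrdc3 lies between 0.333 and 0.789 in fasted libraries and between 0.193 and 0.236 in ad libitum libraries.

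To set the members side by side, CPM were divided by the mean length of each gene's coding transcripts in kilobases, from GENCODE M21 on another build, used for lengths alone. On this per-length scale Arrdc2 had 47.7 ± 8.10 CPM per kilobase after 1 week, 34.3 ± 8.52 after 1 day and 11.7 ± 0.535 under ad libitum feeding (SD, n = 3 each). Arrdc3 had 30.4, 31.1 and 25.6, and Txnip 17.1, 13.6 and 10.7, in the 1 week, 1 day and ad libitum groups. Arrdc1 (6.28, 6.40 and 7.06) and Arrdc4 (1.92, 2.02 and 2.11) were the lowest in each group. The order of the per-length levels was thus Arrdc2, Arrdc3, Txnip, Arrdc1 and Arrdc4 after 1 week, and Arrdc3 led under ad libitum feeding, where Arrdc2 and Txnip lay close together.

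The length used decides some neighbours in that order. With the longest coding transcript, Arrdc2 had 27.6 CPM per kilobase after 1 week, 19.9 after 1 day and 6.76 under ad libitum feeding, so it fell below Arrdc3 (22.8) at 1 day and below Txnip (10.7) under ad libitum feeding. Of the summed per-length level of the 5 genes, Arrdc2 made up 45.9% ± 4.80 after 1 week, 38.8% ± 6.45 after 1 day and 20.5% ± 1.15 under ad libitum feeding (SD, n = 3 each). With the longest transcript the shares were 38.2%, 32.0% and 16.2%.

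The members did not move as 1 group across libraries. As a measure of likeness, the root mean square difference between centred log2 CPM over the 9 libraries was 0.196 for Arrdc3 and Arrdc4, the closest pair, and 0.960 for Arrdc1 and Arrdc2, the farthest. Arrdc2 and Txnip were 0.638 apart, and Txnip was nearer to Arrdc3 (0.225) than to any other member. These distances describe 9 libraries in 3 groups and depend on how strongly each gene varied.

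The 16323 genes with a mean of at least 1 CPM were ranked by the same distance to Arrdc2 and to Txnip, and unnamed gene models were passed over. The nearest named gene to Arrdc2 was Gabrr2, a subunit of the ionotropic GABA receptor of the rho class, at 0.152. Gabrr2 averaged 7.77 CPM after 1 week, 5.40 CPM after 1 day and 1.52 CPM under ad libitum feeding. The next were Tekt4, a tektin of cilia and flagella (0.251), Sult1a1, a cytosolic sulfotransferase (0.261), Fam83d, a spindle protein (0.261), and Ddit4, a stress-induced inhibitor of mTORC1 (0.262). Ddit4 averaged 131 CPM after 1 week, 98.0 CPM after 1 day and 38.1 CPM under ad libitum feeding. Sult1a1 averaged 27.1, 18.1 and 5.71 CPM, Fam83d 5.09, 3.67 and 1.03 CPM and Tekt4 3.73, 3.40 and 0.933 CPM in the 1 week, 1 day and ad libitum groups.

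The genes nearest to Txnip were Fzd4, a Wnt and norrin receptor (0.0807), Mapk4, an atypical MAP kinase (0.0986), Klf4, a zinc finger transcription factor (0.0989), Prodh, the mitochondrial proline dehydrogenase (0.117), and Neil3, a DNA glycosylase (0.125). Fzd4 averaged 24.8 CPM after 1 week, 20.1 CPM after 1 day and 16.5 CPM under ad libitum feeding. Mapk4 averaged 129, 109 and 89.2 CPM and Prodh 38.1, 30.7 and 25.3 CPM in the same order of groups. Klf4 averaged 11.0, 9.23 and 7.59 CPM and Neil3 2.29, 1.93 and 1.68 CPM. Without both libraries that stood apart, 3 of the 5 genes named for Arrdc2 and 1 of the 5 named for Txnip stayed among the nearest 5.

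**Figure D4:**
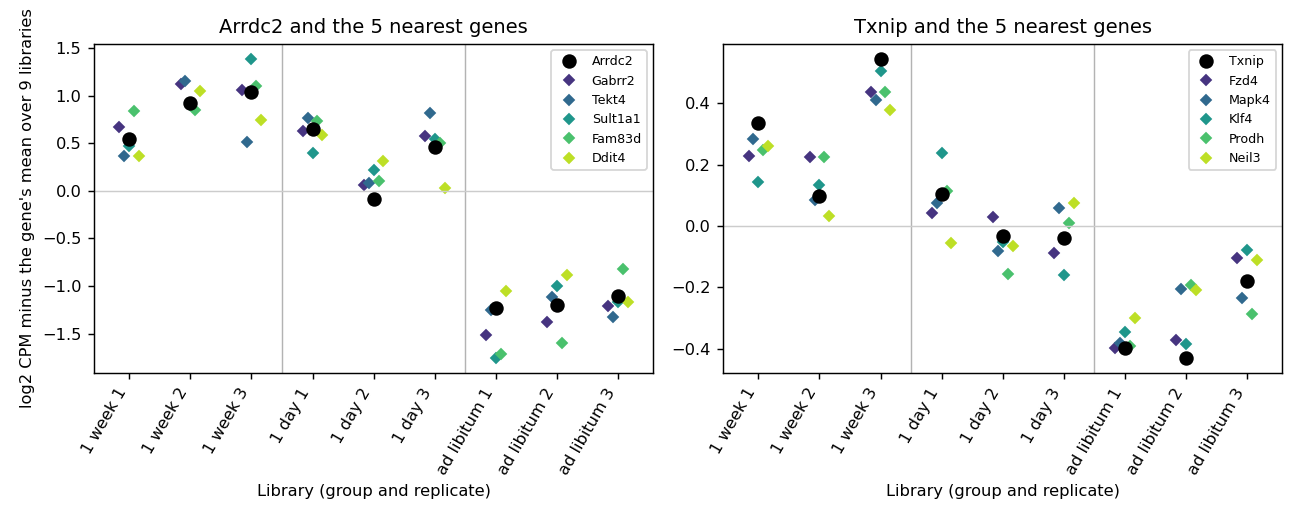
Centred log2 CPM (vertical axis) in the 9 libraries, ordered as 1 week, 1 day and ad libitum, of Arrdc2 and of Txnip with the 5 genes nearest to each in pattern. The Arrdc2 panel spans a wider range than the Txnip panel, and within the 1 day group Arrdc2 and its neighbours are lowest in replicate 2, except Ddit4, which is lowest in replicate 3.

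Among known cargoes and partners of the family, the RNAs of 2 glucose transporters rose after 1 week of intermittent fasting. Slc2a4 encodes GLUT4, the insulin-responsive transporter, and Slc2a1 encodes GLUT1, the transporter of the blood-brain barrier, and both are known from other cells to be withdrawn from the surface by Txnip. Of the 12 cargo and partner genes, 2 passed edgeR's threshold as higher and 0 as lower at 1 week, where 0.253% and 0.0536% of all tested genes did. The list was written with earlier results of these data known, so this count is a description and no independent evidence. The median log2 difference of the list was 0.04, beside -0.0013 for all tested genes.

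Slc2a4 had 8.56, 8.10 and 9.20 CPM in the 1 week libraries, 5.96, 4.91 and 6.76 CPM in the 1 day libraries and 3.17, 4.02 and 3.94 CPM in the ad libitum libraries. The 3 groups did not overlap, in the order 1 week, 1 day, ad libitum from high to low. The log2 difference was 1.22 at 1 week (SE 0.17, edgeR adjusted p = 0.0232, higher in 3 of 3 libraries) and 0.66 at 1 day, which did not pass (SE 0.17, edgeR adjusted p = 0.325). Between 1 week and 1 day it was 0.55 (SE 0.17, edgeR adjusted p = 0.853).

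Slc2a1 had 213, 277 and 247 CPM in the 1 week libraries, 211, 187 and 149 CPM in the 1 day libraries and 117, 135 and 138 CPM in the ad libitum libraries. All 1 week libraries were above all others, though replicate 1 was so by a small margin over 1 day replicate 1. The log2 difference was 0.92 at 1 week (SE 0.15, edgeR adjusted p = 0.0380, higher in 3 of 3 libraries) and 0.49 at 1 day, which did not pass (SE 0.15, edgeR adjusted p = 0.418). Both calls at 1 week were lost in 6 of 9 fits that left out 1 library, namely any ad libitum library, 1 day replicate 1, 1 week replicate 2 or 1 week replicate 3, with adjusted p up to 0.169 for Slc2a4 and 0.227 for Slc2a1. Without both libraries that stood apart, Slc2a4 kept its call (edgeR adjusted p = 0.0225) and Slc2a1 did not (edgeR adjusted p = 0.0833).

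The other cargo genes did not pass in any comparison. Slc2a3, the neuronal glucose transporter, averaged 108 ± 9.12 CPM after 1 week and 102 ± 0.525 CPM under ad libitum feeding (SD, n = 3 each), a log2 difference of 0.08. At 1 day 0 of the 12 genes passed with edgeR, 3 had an unadjusted p under 0.05, DESeq2 called 1 and weighted limma-voom 0. Between 1 week and 1 day 0 passed with edgeR, 2 had an unadjusted p under 0.05, and neither other tool called any. Of all tested genes, 11.2% had an unadjusted p under 0.05 at 1 week, 9.27% at 1 day and 5.22% between 1 week and 1 day, and the counts at that p in each list below are to be read against these shares.

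MondoA, ChREBP and Mlx, which read glucose upstream of Txnip, belong to a wider network. No gene of that network passed edgeR's threshold with all 9 libraries. Of 12 tested genes of the Mondo, MLX and MAX network, 0 passed in any comparison, with medians of 0.08 at 1 week, 0.06 at 1 day and 0.07 between them. At 1 week 3 of the 12 had an unadjusted p under 0.05, DESeq2 called 2 and weighted limma-voom 1, while over all 20535 genes DESeq2 called 458 and weighted limma-voom 218. At 1 day 2 of 12 and between the fasted groups 1 of 12 had such a p, with no call by either tool.

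Mxd4, a MAX-binding repressor, averaged 110 ± 12.8 CPM after 1 week and 62.8 ± 4.45 CPM under ad libitum feeding (SD, n = 3 each), a log2 difference of 0.81 (SE 0.18, edgeR adjusted p = 0.122), and it did not pass. Mxd4 did pass with DESeq2 (adjusted p = 0.00368) and weighted limma-voom (adjusted p = 0.0232), and with edgeR without both libraries that stood apart (adjusted p = 0.0381), without 1 day replicate 2 (adjusted p = 0.0131) and with the 6 libraries compared alone (adjusted p = 0.0301). Mxd4 was also 0.44 apart between 1 week and 1 day (edgeR adjusted p = 0.853). Mlxipl, which encodes ChREBP, averaged 2.34 ± 0.357 CPM after 1 day and 3.76 ± 0.345 CPM under ad libitum feeding (SD, n = 3 each), a log2 difference of -0.69 that did not pass (SE 0.24, edgeR adjusted p = 0.485). Mlxip, which encodes MondoA, was -0.04 from ad libitum at 1 week, and Mlx -0.22.

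Of 9 tested genes known as ChREBP targets in liver, 0 passed edgeR's threshold in any comparison, and 2 had an unadjusted p under 0.05 at 1 week and 0 in the other comparisons. Their medians were -0.14 at 1 week, -0.07 at 1 day and 0.04 between them. Elovl6, a fatty acid elongase, had the smallest p at 1 week, with 57.3 ± 8.80 CPM against 81.2 ± 7.67 CPM under ad libitum feeding (SD, n = 3 each; log2 difference -0.50, edgeR adjusted p = 0.212). Klf10, a transcriptional repressor, was -0.71 at 1 day (edgeR adjusted p = 0.544), and Gpd1, a glycerol phosphate dehydrogenase, was 0.32 between 1 week and 1 day (edgeR adjusted p = 0.853). Neither DESeq2 nor weighted limma-voom called any of the 9.

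The ligases that alpha-arrestins recruit showed no call. Of 11 NEDD4-type ligases and their adaptors, 0 passed edgeR's threshold in any comparison and 1 had an unadjusted p under 0.05, at 1 week. The medians were -0.10 at 1 week, 0.0015 at 1 day and -0.08 between them. Wwp1 had the smallest p against ad libitum, at -0.31 after 1 week (edgeR adjusted p = 0.384) and -0.21 after 1 day (edgeR adjusted p = 0.577), and Smurf2 was -0.25 between 1 week and 1 day (edgeR adjusted p = 0.853). Nedd4 itself averaged 457 ± 31.9 CPM after 1 week and 492 ± 13.9 CPM under ad libitum feeding (SD, n = 3 each).

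The thioredoxin system, the binding partner of Txnip, also had 0 of 13 genes past edgeR's threshold in every comparison, with 1 gene at an unadjusted p under 0.05 at 1 week and 1 at 1 day. The medians were -0.11 at 1 week, -0.09 at 1 day and -0.03 between them. Txn1, the cytosolic thioredoxin that Txnip binds, averaged 32.2 ± 1.90 CPM after 1 week and 32.3 ± 1.47 CPM under ad libitum feeding (SD, n = 3 each). Prdx1, a peroxiredoxin, was -0.34 at 1 week (edgeR adjusted p = 0.419). Txn2, the mitochondrial thioredoxin, was -0.40 at 1 day (edgeR adjusted p = 0.528) and 0.29 between 1 week and 1 day (edgeR adjusted p = 0.853).

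Of 14 genes of the ESCRT machinery that Arrdc1 uses for budding, 0 passed edgeR's threshold in any comparison, and 1 had an unadjusted p under 0.05, at 1 week. The medians were -0.05 at 1 week, -0.08 at 1 day and 0.02 between them. Tsg101, the Arrdc1 partner, averaged 38.7 ± 3.14 CPM after 1 week and 39.8 ± 3.84 CPM under ad libitum feeding (SD, n = 3 each). The smallest p belonged to Stam2 at 1 week (-0.27, edgeR adjusted p = 0.401), Hgs at 1 day (-0.23, edgeR adjusted p = 0.544) and Mvb12b between 1 week and 1 day (0.29, edgeR adjusted p = 0.853), all parts of endosomal sorting complexes.

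The other arrestin-fold genes likewise had no call. Of 7 tested, 0 passed edgeR's threshold and 0 had an unadjusted p under 0.05 in any comparison, and neither other tool called any. Their medians were 0.08 at 1 week, 0.12 at 1 day and -0.04 between them. Arrb1, the beta-arrestin that desensitises many receptors, averaged 414 ± 45.7 CPM after 1 week and 391 ± 15.8 CPM under ad libitum feeding (SD, n = 3 each). Vps26b, a retromer subunit with an arrestin fold, was 0.17 at 1 week (edgeR adjusted p = 0.674) and 0.21 at 1 day (edgeR adjusted p = 0.585), and Sag, the rod arrestin, was 0.36 between 1 week and 1 day (edgeR adjusted p = 0.853). DESeq2 and weighted limma-voom also made no call among the ligases, the thioredoxin system or the ESCRT genes. Arrdc5, Arr3, Mxd3, Pklr, G6pc and Fgf21 were not analysed here.

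**Figure D5:**
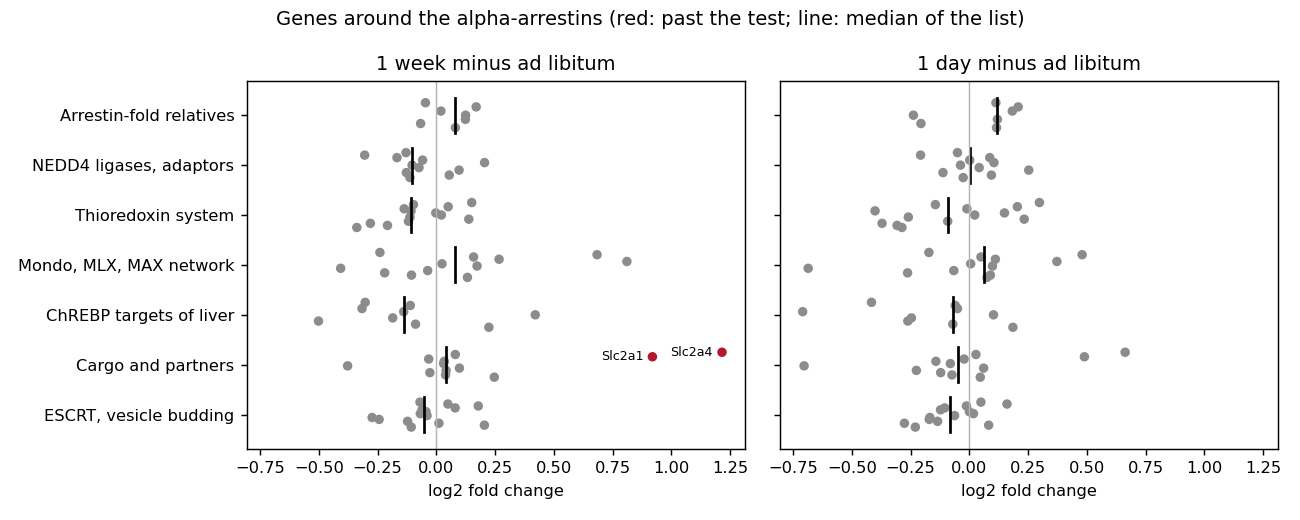
Log2 difference (horizontal axis) of each gene in the 7 pathway lists, with the list median as a vertical line, for 1 week minus ad libitum and 1 day minus ad libitum. The 2 genes past edgeR's threshold are Slc2a4 at 1.22 and Slc2a1 at 0.92, both among cargoes and partners at 1 week.

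Markers of cell types that the lysate could hold were read beside these results. Of 71 markers, 69 were tested, and edgeR called 0 of them higher and 0 lower in every comparison. At an unadjusted p under 0.05 there were 11 markers at 1 week (15.9%, against 11.2% of all tested genes), 15 at 1 day (21.7%, against 9.27%) and 14 between 1 week and 1 day (20.3%, against 5.22%), while DESeq2 called 3, 3 and 0 and weighted limma-voom 3, 2 and 0. The 7 microglial markers summed to 167 to 275 CPM after 1 week, 196 to 223 CPM after 1 day and 274 to 300 CPM under ad libitum feeding. The 8 oligodendrocyte markers summed to 10412 to 11809 CPM, 9759 to 11531 CPM and 11248 to 13682 CPM in the 1 week, 1 day and ad libitum groups. The microglial sums after 1 day all lay below the ad libitum sums, while those after 1 week overlapped them. The oligodendrocyte sums overlapped between all groups, with medians of 11386, 11204 and 11357 CPM in the 1 week, 1 day and ad libitum groups. The part of either in the differences of Arrdc2 and Txnip was not tested.

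Slc2a1 is known to be expressed by endothelium, so blood and vessel markers are given beside it. The 4 hemoglobin genes summed to 491 to 1482 CPM after 1 week, 278 to 323 CPM after 1 day and 439 to 475 CPM under ad libitum feeding. The 7 endothelial markers summed to 234 to 310 CPM after 1 week, 264 to 268 CPM after 1 day and 269 to 327 CPM under ad libitum feeding, with overlap between all groups except 1 day and ad libitum. The part of either in the Slc2a1 difference was not tested. The 6 astrocyte markers summed to 4027 to 4297 CPM, 3769 to 4520 CPM and 3772 to 3971 CPM in the 1 week, 1 day and ad libitum groups. The 1 week sums for astrocytes all lay above the ad libitum sums, and their part in the differences of the members was not tested.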

How the data were processed

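RNA from substantia nigra lysate was made into polyA libraries with a directional kit, per the labels' protocols. The submitters' processing notes name Salmon, DESeq2 1.40.2 and the builds GRCm39 and mm39. The annotation release is not stated in the sources used. The authors deposited 1 table of estimated counts, which Salmon derives from reads assigned to transcripts, as unscaled whole numbers for 20591 genes. Counts were scaled by TMM, filterByExpr (minimum count 10, minimum total 15) removed 56 rows, and edgeR 4.0.16 in R 4.3.3 fitted all 9 libraries, with a two-sided quasi-likelihood F test and Benjamini-Hochberg adjustment over 20535 genes (threshold 0.05). Intervals use the fit's moderated degrees of freedom. DESeq2 1.42.0, limma 3.58.1 (voom with quality weights), other scalings and filters, a replicate block and left-out libraries were alternatives, and the 2 libraries left out together were picked from earlier results. The members and the gene lists were chosen with earlier results of these data known. All members were named, with up to 3 genes past the threshold per list and comparison, or otherwise the 1 with the smallest p, and the 5 nearest genes in pattern (prior count 2). Nedd4, Txn1, Tsg101, Arrb1, Slc2a3, Mlx and Mlxip were added for their roles, after their values were seen. Salmon divides reads between similar transcripts, so close paralogs are less certain. The libraries all differed from each other by more than counting noise (lowest chi-square per gene 26.35).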

Additional observations from a re-analysis of the deposited data

How the results depend on the processing

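The log2 differences of Arrdc2, Arrdc3 and Txnip from ad libitum kept their sign in all 18 alternatives of each comparison. Arrdc2 ran from 1.93 to 2.16 at 1 week and from 1.39 to 1.74 at 1 day. Between 1 week and 1 day it ran from 0.26 to 0.63, and no member passed there in any alternative. Signs turned for 3 members in that comparison. Arrdc3 was 0.041 under voom with quality weights, 0.080 without both libraries that stood apart and -0.097 to 0.043 when 1 library was left out. Arrdc1 was 0.0021 with a replicate block and -0.26 to 0.16 with 1 library left out, and Arrdc4 was -0.15 to 0.0057 with 1 library left out. The cause was not tested.

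Counts over all genes moved more. At 1 week, 63 genes became 458 under DESeq2, 218 under voom, 155 with the 6 libraries compared alone, 32 with a replicate block and 8 to 121 with 1 library left out. At 1 day, 12 genes became 180 under DESeq2, 57 under voom, 21 with library totals alone, 26 with the 6 libraries compared, 50 without both libraries that stood apart, 2 with the block and 0 to 22 with 1 library left out, the 0 without any of the ad libitum libraries. Between 1 week and 1 day, 0 became 3 under DESeq2 and 0 to 3 with 1 library left out. Replicate numbers gave no clear pairing of the samples: same-numbered libraries correlated at -0.198 to 0.437 in their deviations, with 3 of 9 pairs over 0.1. Differently numbered libraries correlated at -0.334 to 0.258, with 6 of 18 pairs over 0.1. The highest value, 0.437, was between both libraries that stood apart. With the block, the call of Arrdc2 at 1 day was lost, and so was that of Slc2a1 at 1 week (edgeR adjusted p = 0.0921). With 3 libraries a group, the intervals of Arrdc1 and Arrdc4 leave room for differences of up to 0.66 and 0.49 at 1 week in the lower direction.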
